A study of Mus musculus with 3 samples.

Results

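The 7 immune and microglial miRNAs comprised the leukocyte miRNAs miR-142-5p (MIMAT0000154), miR-142-3p (MIMAT0000155), miR-150 (MIMAT0000160) and miR-223 (MIMAT0000665), and the NF-kB responsive miR-146a (MIMAT0000158), miR-146b (MIMAT0003475) and miR-155 (MIMAT0000165). The rule that chose them is a list of miRBase identifiers, and all 7 were present among the 602 miRNAs of the table. Each was read in 3 samples of sorted Müller glia (MG), the main glia of the retina, which had been counted on the NanoString nCounter. This assay tags mature miRNAs and counts tagged molecules without amplification. The values are normalized counts, that is, counts after subtraction of the background and multiplication by 1 factor per sample set by 4 housekeeping mRNAs together.

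All mice were adult and carried the Rlbp1-CreER driver and a tdTomato reporter. The Rlbp1 promoter directs a tamoxifen-dependent Cre to MG, which then turn red and can be sorted. Tamoxifen was dosed at 75 mg/kg, on 3 consecutive days per the labels and on 4, at 2 to 3 months of age, per the study's methods. The wild type sample pooled the sorts of 40 undamaged retinas. The light damage (LD) sample pooled 44 retinas taken 7 days after 8 h of light at 10000 lux, and its mice had in addition been crossed to the albino Swiss Webster strain, which carries a variant of RPE65. The Dicer-cKO sample pooled 26 retinas of mice that also carried Dicer f/f, taken 1 month after Cre induction, and Dicer is the enzyme that cuts precursors into mature miRNAs. The wild type and Dicer-cKO samples came from an earlier study by the same group and were normalized anew together with the LD sample, and in comparisons with the LD sample the condition therefore cannot be told apart from strain or from the series of measurements. Because each condition has 1 sample there was no replicate spread, and no test or p-value was obtained. Intervals are exact 95% Clopper-Pearson intervals and cover counting error only.

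Microglia are the resident macrophages of the retina and, like other cells of the haematopoietic lineage, transcribe Mir142, a gene silent in most other lineages. miR-223 is a miRNA of myeloid cells and miR-150 of mature lymphocytes. NF-kB, the transcription factor of inflammatory signalling, induces miR-146a and miR-155. miR-146a and miR-146b lower the adaptor proteins of Toll-like receptors and thereby restrain the same pathway, whereas miR-155 is known for promoting the activation of macrophages. The sort in the methods gated on debris and on the brightness of tdTomato, and no antibody against leukocytes is named. Cells of intermediate brightness were left out, and the tdTomato-positive fraction was sorted again to check its purity. In pooled sorted cells, more cells of a type and more of a miRNA per cell cannot be told apart.

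The mature sequences of the miR-142 arms and of the miR-146 pair are shown because the results turn on the contrast within each pair. The capitals mark the seed, bases 2 to 8 from the 5′ end, through which a miRNA finds its targets.
miR-142-5p: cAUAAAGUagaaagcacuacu
miR-142-3p: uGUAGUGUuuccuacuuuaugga
miR-146a: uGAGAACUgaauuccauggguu
miR-146b: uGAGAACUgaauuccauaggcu

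These sequences are those of RefSeq (GRCm38.p6), in which 6 of the 7 miRNAs were matched by name. Both miR-142 arms lie on the plus strand in Mir142, the 5p arm at chr11:87756867-87756887 and the 3p arm at chr11:87756903-87756925. They derive from 1 hairpin, have different seeds, and neither seed is shared with another mature mouse miRNA of that table. miR-142b, read from the opposite strand of the same locus, is the exact complement of 20 bases of the 3p arm. miR-146a (chr11:43374435-43374456, minus strand) and miR-146b (chr19:46342790-46342811, plus strand) come from separate genes. They share the seed GAGAACU, which no other mature miRNA of the table has, and are identical at 20 of 22 bases. The differences, with positions counted from the 5′ end of miR-146a, are G18A and U21C, and cross-reaction of the probes of this pair was not tested. miR-155 (chr16:84714143-84714165) lies within the annotated span of Mir155hg, and miR-223 (chrX:96242884-96242905) within that of F630028O10Rik. They were matched to the 5p and the 3p arm, respectively, and both lie on the plus strand.

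Reading depth differed strongly. Before scaling, all miRNA counts summed to 678751 in the wild type sample, 230245 in the LD sample and 44290 in the Dicer-cKO sample, and the housekeeping factors were 1.15, 2.04 and 4.42. A low count in the Dicer-cKO sample was therefore enlarged most. The single housekeeping mRNAs still differed after scaling, with 799, 380 and 622 normalized counts for Gapdh and 742, 1269 and 701 for Rpl19 in wild type, LD and Dicer-cKO MG. The table has 14 ERCC control rows, of which the 8 lowest were taken as the 8 negative controls of the methods. The highest of them, the same row in every sample, had 23.4 counts before scaling in the wild type sample, 31.5 in the LD sample and 38.6 in the Dicer-cKO sample, equal to 27.0, 64.1 and 171 normalized counts. The next control row had only 18.4 counts in the wild type and 5.50 in the LD sample and stood at the lowest value of the Dicer-cKO sample. Of the 7 miRNAs, 5 exceeded the highest of these control rows in the wild type sample, 4 in the LD sample and 4 in the Dicer-cKO sample. Over all 602 miRNAs the corresponding shares were 35.5%, 18.8% and 12.1%.

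The immune miRNAs were scarce in sorted MG, and their sum took a larger share of the miRNA counts under both conditions. Their normalized counts summed to 537 in the wild type sample, 1252 in the LD sample and 2241 in the Dicer-cKO sample, or 0.0685%, 0.267% and 1.15% of all miRNA counts. The share of miR-150 was lower in the LD sample, at 0.485 (0.275 to 0.809) of that in the wild type sample. With miR-720 left out of the totals it was 0.745 (0.422 to 1.24), which is not beyond counting error. A larger share in the Dicer-cKO sample was common, since with equal totals the median log2 change over the 141 miRNAs of sufficient mean was 1.08 there. For comparison, the MG marker miR-204 had 285706 counts in the wild type sample, 51963 in the LD sample and 30438 in the Dicer-cKO sample. In the wild type sample miR-142-5p had the highest level of the 7, at rank 80 of the 602, followed by miR-150 (98), miR-146a (107), miR-146b (148) and miR-142-3p (168). After LD the order was miR-146a (49), miR-142-3p (53), miR-142-5p (59), miR-146b (100), miR-150 (139) and miR-223 (145), and the first 3 lay between 414 and 296 normalized counts. In the Dicer-cKO sample miR-142-5p (34) and miR-150 (39) ranked above miR-142-3p (53) and miR-146a (54), with miR-146b at 116 and miR-223 at 166. Ranks between miRNAs also carry the unequal efficiency of their probes, which is not known.

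**Figure D1:**
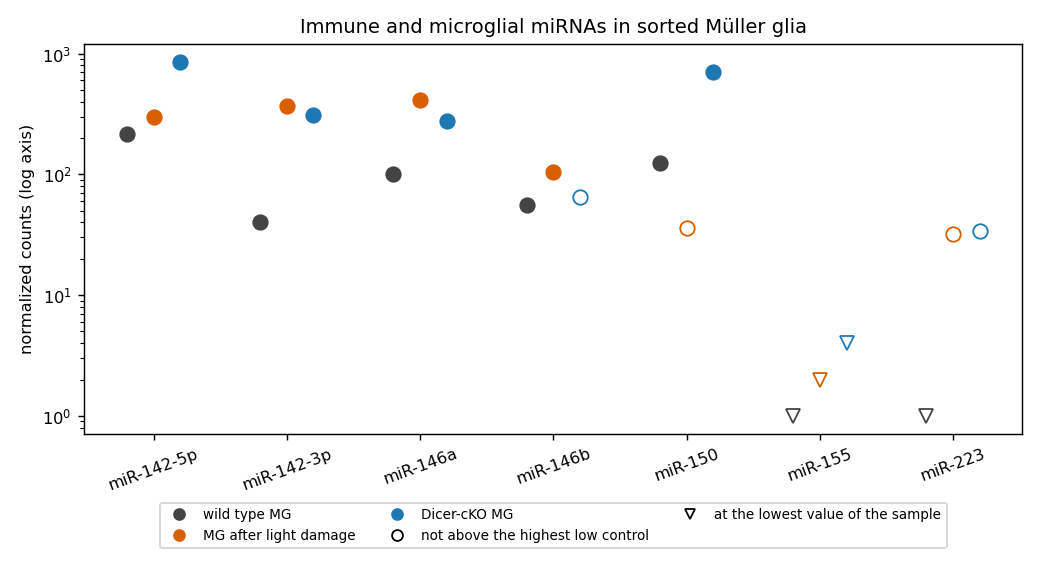
Normalized counts (log axis) of the 7 miRNAs in the wild type sample, after light damage and in the Dicer-cKO sample, 1 pooled sample each. Open symbols are not above the highest low control row before scaling, and triangles mark the lowest value of a sample: miR-155 is at that value everywhere, and miR-142-3p stands at 40, 367 and 308 counts.

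The leukocyte miRNAs did not move as a block. miR-142-3p had 40 normalized counts in the wild type sample, 367 in the LD sample and 308 in the Dicer-cKO sample. It was 9.18-fold higher after LD (95% interval 6.40 to 13.7) and 7.70-fold higher in the Dicer-cKO sample (5.08 to 12.0), so that both conditions stood above the wild type. Before scaling the counts were 34.4, 181 and 69.6, ratios of 5.25 (3.63 to 7.80) and 2.03 (1.33 to 3.14). The wild type count lies only a little above the control row of 23.4.

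miR-142-5p, the other arm of the hairpin, had 216 normalized counts in the wild type sample, 296 in the LD sample and 856 in the Dicer-cKO sample. Here the Dicer-cKO sample stood apart, 3.96-fold above wild type MG (3.22 to 4.86), while the LD sample was 1.37-fold above it (1.09 to 1.71). Before scaling, miR-142-5p had 187, 146 and 194 counts. The ratio to wild type MG was then 0.777 (0.621 to 0.969) in the LD sample and 1.03 (0.841 to 1.27) in the Dicer-cKO sample, so that no rise was seen before scaling.

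miR-150, the lymphocyte miRNA, went in opposite directions. It had 123 normalized counts in the wild type sample, 36 in the LD sample and 697 in the Dicer-cKO sample. After LD it was lower, with a ratio of 0.293 (0.164 to 0.483), and in the Dicer-cKO sample it was 5.67-fold higher (4.41 to 7.32). Before scaling it had 106, 17.5 and 158 counts, a Dicer-cKO to wild type ratio of 1.48 (1.15 to 1.91). The 17.5 counts in the LD sample are below the control row of 31.5, and the level there lies within the range of the control rows.

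miR-223, the myeloid miRNA, stood at the lowest value of the wild type sample and had 32 normalized counts in the LD sample and 34 in the Dicer-cKO sample. These correspond to 15.5 and 7.63 counts before scaling, below the highest control row (31.5 and 38.6) and above the next one. No ratio to wild type MG is given, since the subtracted background is unknown. Between LD and Dicer-cKO MG the ratio was 0.941 (0.371 to 2.59), too wide to tell the samples apart. The 4 leukocyte miRNAs together had 380 normalized counts in the wild type sample, 731 in the LD sample and 1895 in the Dicer-cKO sample, and miR-142-5p was the most abundant of them in the wild type sample. The ratio of these sums to wild type MG was 1.92 after LD and 4.98 in the Dicer-cKO sample, and over 10 scalings of the samples it lay between 1.09 and 4.94 and between 1.30 and 20.5.

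Among the NF-kB responsive miRNAs, miR-146a had 100 normalized counts in the wild type sample, 414 in the LD sample and 277 in the Dicer-cKO sample. It was 4.14-fold higher after LD (3.21 to 5.40), the highest level of the 3 samples as deposited, and 2.77-fold higher in the Dicer-cKO sample (1.97 to 3.89). The counts before scaling were 86.4, 204 and 62.6. After LD miR-146a thus exceeded wild type MG even without the factor, by a ratio of 2.36 (1.82 to 3.07), whereas in the Dicer-cKO sample the ratio without it was 0.725 (0.515 to 1.02).

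Its paralog miR-146b stood closer to wild type MG as deposited. It had 56 normalized counts in the wild type sample, 105 in the LD sample and 65 in the Dicer-cKO sample. The ratio was 1.88 (1.24 to 2.84) in the LD sample and 1.16 (0.598 to 2.11) in the Dicer-cKO sample, where only 14.6 counts before scaling stood behind the value, below the highest control row. miR-155 was at the lowest value of each sample, 1, 2 and 4 normalized counts, which is 1 count before scaling times the factor. It was not detectable at this depth in any of the 3 samples, and no ratio is given.

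**Figure D2:**
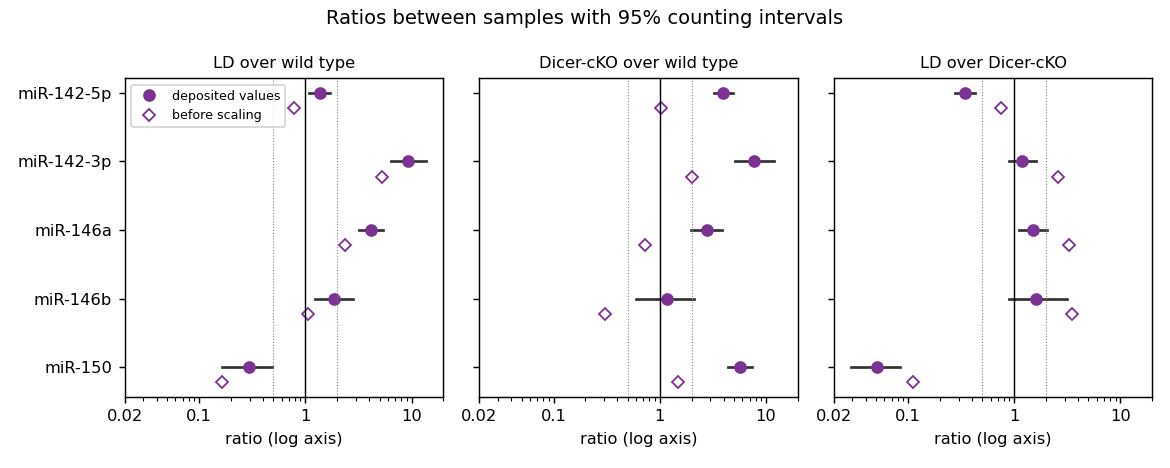
Ratios between samples for 5 miRNAs on log axes, with filled points for the deposited values, bars for 95% counting intervals, open diamonds for ratios before scaling and dotted lines at 2-fold. miR-155 and miR-223 are not drawn, and miR-142-3p is the only miRNA whose open diamonds lie past 2-fold in both comparisons with wild type MG.

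To read these ratios against the rest of the panel, a miRNA was called when it differed at least 2-fold and its interval lay on the same side of 1. The background is given for those 104 miRNAs whose mean over the 3 samples reached 100 normalized counts, of which 4 belong to the 7 (miR-146b, miR-155 and miR-223 do not). Of the 7 miRNAs, 2 were called higher after LD, miR-142-3p and miR-146a, and 1 was called lower, miR-150. miR-155 and miR-223, at the lowest value in wild type MG, could get no call against it. This exclusion was applied to the 7 only, and the shares over all tested miRNAs kept those at the lowest value. Without the exclusion, miR-223 would be called higher in both comparisons with wild type MG. Of the 4 leukocyte miRNAs, 2 would then be called higher after LD and 4 in the Dicer-cKO sample. The counts and the shares thus do not rest on quite the same rule. Over the 104, 18.3% were called higher and 39.4% lower. In the Dicer-cKO sample 4 of the 7 were called higher, miR-142-5p, miR-142-3p, miR-146a and miR-150, and 0 lower, beside 19.2% higher and 60.6% lower over the 104. Both comparisons share the wild type sample. The median log2 change (pseudocount 1) of the 7 was 0.90 in the LD sample and 1.98 in the Dicer-cKO sample, with the same medians over the 5 that were above the lowest value in every sample. Over the 104 miRNAs the medians were -0.70 and -1.36. The log2 change of miR-146a, which had 100 normalized counts in wild type MG, ranked 13 of 104 in the LD sample and 17 of 104 in the Dicer-cKO sample. No rank is given for miR-142-3p, which had 40 in wild type MG and reached the minimum mean only through the samples in which it was higher. The same holds for miR-150, which reached it only through the 697 normalized counts of the Dicer-cKO sample.

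**Figure D3:**
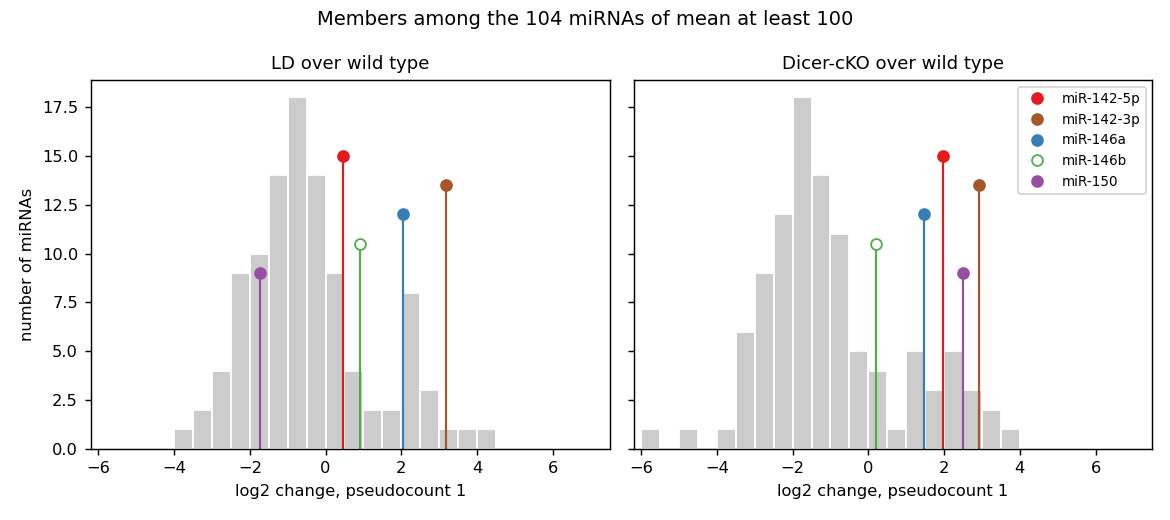
Histograms of the log2 changes (pseudocount 1) of the 104 miRNAs whose mean reached 100, with lines at 5 members (miR-146b, open, is below that mean) whose heights carry no value. In the Dicer-cKO sample the 5 lines lie between 0.21 and 2.91 while the median of the 104 is -1.36, and after LD miR-150 lies at -1.74.

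Set directly against each other, the LD and the Dicer-cKO sample differed at least 2-fold in miR-150 and miR-142-5p. LD over Dicer-cKO gave a ratio of 0.0516 (0.0293 to 0.0840) for miR-150 and 0.346 (0.277 to 0.431) for miR-142-5p. The miR-150 value rests on 17.5 counts in the LD sample, below the highest control row, so its exact size is not fixed. Subtraction of 1 SD of the low control rows moved it to 0.0218. The ratio was 1.19 (0.900 to 1.60) for miR-142-3p, 1.49 (1.12 to 2.02) for miR-146a and 1.62 (0.893 to 3.13) for miR-146b. Thus 0 of the 7 were called higher after LD than in the Dicer-cKO sample and 2 lower, beside 41.3% and 12.5% of the 104. The median log2 difference of LD from Dicer-cKO was -0.08 over the 7 and 0.73 over the 104. The former is the value of miR-223, whose counts lie below the highest control row in both samples. miR-155, at the lowest value in both, is also among the 7. The 5 above the lowest value in every sample had a median of 0.25.

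Since 1 factor multiplies a whole sample, the ratios were recomputed under 9 other scalings. The call of miR-142-3p as higher held under all 10 in both comparisons, between 5.25- and 23.8-fold after LD and between 2.03- and 31.9-fold in the Dicer-cKO sample. miR-146a was also called higher after LD under all 10, at the lowest 2.36-fold. In the Dicer-cKO sample it was called higher under 9 and had a ratio of 0.725 without scaling. There miR-142-5p and miR-150 were also called higher under 9, between 1.03- and 16.3-fold and between 1.48- and 23.3-fold. Both calls were lost without scaling. miR-150 was below wild type MG after LD under all 10, between 0.165 and 0.745, and was called lower under 8. Its ratio of LD to Dicer-cKO was called lower under all 10. That of miR-142-5p was below 1 under all 10 but called lower under 8, with 0.567 for Gapdh only and 0.751 without scaling. miR-146b was called higher after LD under 5 of the 10, up to 4.82-fold. In the Dicer-cKO sample it was called higher under 4, up to 4.76-fold, and lower under 1, and for LD over Dicer-cKO it was called higher under 3, with the Dicer-cKO count below the highest control row throughout. The order of LD and Dicer-cKO was not settled for miR-142-3p and miR-146a, which were higher after LD under 5 of the 10 each. The direction of miR-142-5p after LD depended on the scaling, since it was above wild type MG under 8 of 10 and reached 0.777 without scaling. The background moved too. The median log2 change of all miRNAs of sufficient mean lay between -1.73 without scaling and 0.59 with the total without miR-720 after LD, and between -3.33 and 1.21 under the same settings for Dicer-cKO over wild type. With the same total miRNA count in each sample, 51.1% of the 141 miRNAs of sufficient mean were called higher in the Dicer-cKO sample and 6.38% lower, and 5 of the 7 were called higher. After LD 26.2% were then called higher and 22.7% lower, and 4 of the 7 higher. Without scaling 5.62% were called higher and 83.1% lower for Dicer-cKO over wild type, and 1 of the 7 each. With Gapdh as the only reference 39.0% were called higher after LD and 12.7% lower, and 4 of the 7 higher.

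**Figure D4:**
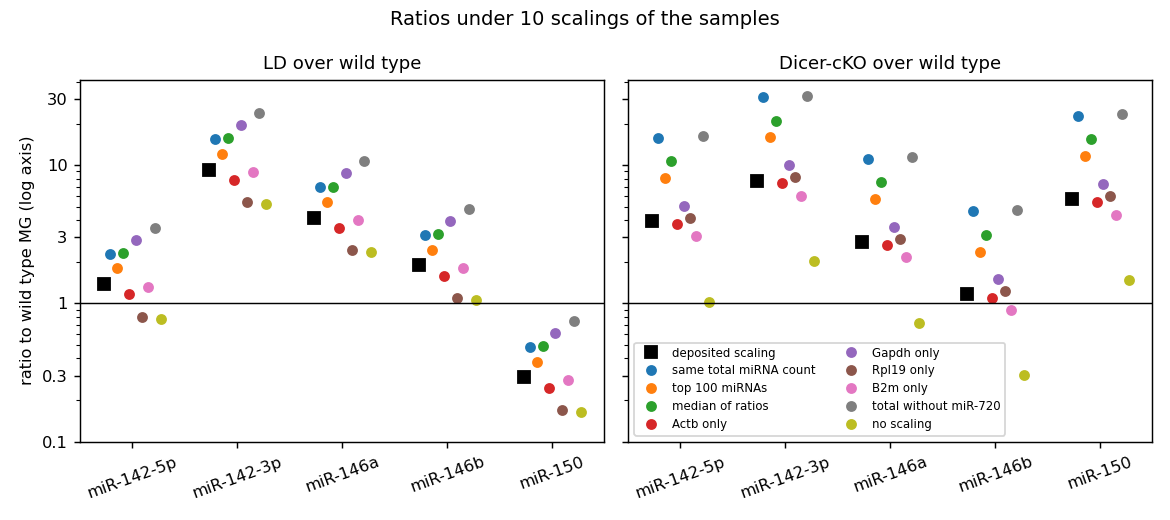
Ratios to wild type MG (log axis) of 5 miRNAs under the deposited scaling (black squares) and 9 others (coloured points). All points of miR-142-3p lie above 1 in both panels, at the lowest at 2.03, and all points of miR-150 lie below 1 in the LD sample.

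Ratios within a sample do not depend on the scaling. The ratio of miR-142-5p to miR-142-3p was 5.40 in the wild type sample (3.77 to 8.09), 0.807 in the LD sample (0.643 to 1.01) and 2.78 in the Dicer-cKO sample (2.10 to 3.71). None of the 3 intervals overlap, and relative to its partner the 3p arm was most abundant after LD. Further subtraction of 1 SD of the low control rows gave 7.02, 0.794 and 3.20. Both arms come from the same hairpin, and the low wild type count of the 3p arm weighs on the first value. The ratio of miR-146b to miR-146a was 0.560 in the wild type sample (0.385 to 0.805), 0.254 in the LD sample (0.183 to 0.345) and 0.235 in the Dicer-cKO sample (0.122 to 0.417). The LD value lies apart from wild type MG, whereas the Dicer-cKO interval overlaps it and its value fell to 0.0268 after that subtraction. The ratio of miR-150 to miR-142-5p was 0.569 in the wild type sample (0.443 to 0.724), 0.122 in the LD sample (0.0688 to 0.198) and 0.814 in the Dicer-cKO sample (0.655 to 1.01). The LD value rests on a miR-150 count within the range of the control rows, and the same subtraction moved it to 0.0506.

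Levels were further expressed per 1000 counts of miR-16, a broadly expressed miRNA. miR-142-3p had 5.51 counts per 1000 of miR-16 in the wild type sample (3.79 to 7.64), 134 in the LD sample (114 to 157) and 91.7 in the Dicer-cKO sample (70.7 to 117). miR-146a had 13.8 (11.0 to 17.0), 152 (130 to 176) and 82.5 (62.7 to 107), respectively. On this measure both were higher under both conditions than in wild type MG. The LD and Dicer-cKO intervals were separate for miR-146a and overlapped for miR-142-3p. miR-142-5p had 29.8, 108 and 255 and was highest in the Dicer-cKO sample. miR-150 had 16.9 in the wild type sample (13.8 to 20.5), 13.2 in the LD sample (7.64 to 20.8) and 208 in the Dicer-cKO sample (174 to 247), so that relative to miR-16 its level after LD did not differ from wild type MG beyond counting error, although the subtraction of 1 SD lowered it to 5.13, against 15.5 in wild type MG. miR-16 itself had 7260 normalized counts in the wild type sample, 2732 in the LD sample and 3358 in the Dicer-cKO sample, which raises all these quotients.

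**Figure D5:**
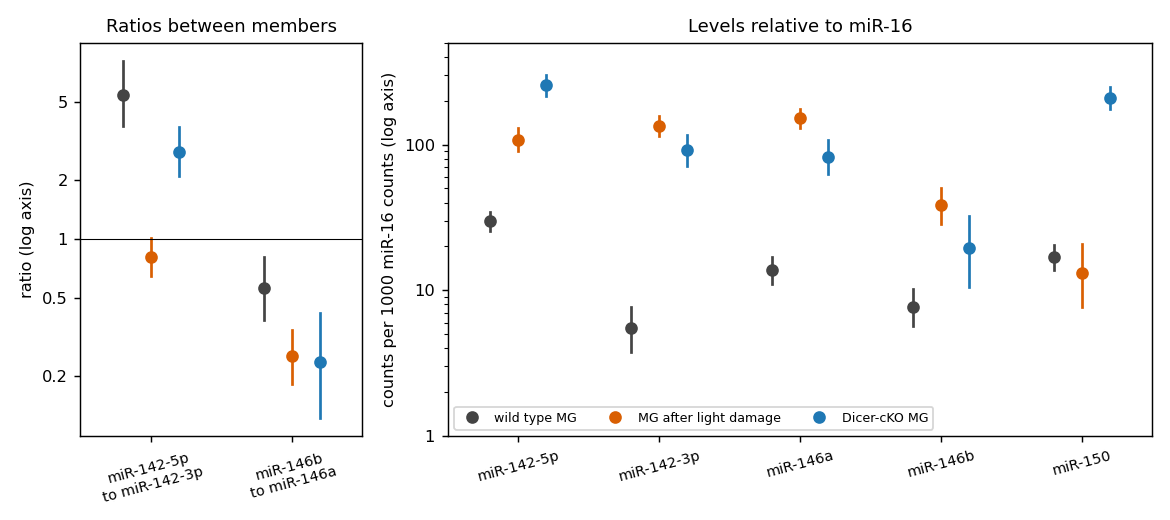
Left, ratios between 2 members in each sample; right, counts of 5 members per 1000 counts of miR-16, both on log axes with 95% counting intervals as bars. The ratio of miR-142-5p to miR-142-3p is 0.807 after light damage against 5.40 in the wild type sample.

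Of 21 other miRNAs with a role in immune signalling, 6 were matched by name and 15 were not read. Names outside the 7 were taken only for miRNAs that the study had drawn in its plots of these samples. These 6 therefore do not stand for the list and no count of calls is given. miR-125b-5p, which lowers the cytokine TNF, had 109596 normalized counts in wild type MG, 19063 in LD and 18202 in Dicer-cKO MG. miR-9, which targets the NF-kB subunit gene Nfkb1, had 75416, 38870 and 18100. miR-181a, which tunes T cell receptor signalling, had 48829, 19965 and 8300. A lower value was the more common direction over the 104 miRNAs as well, and miR-125b-5p and miR-9 were also among the MG markers.

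Of the markers for other cells that the sort could hold, the neuronal miR-124 was higher in both conditions, as were miR-142-3p and miR-146a, but unlike miR-150 after LD. It had 1354 normalized counts in the wild type sample, 5506 in the LD sample and 12106 in the Dicer-cKO sample, ratios of 4.07 (3.80 to 4.36) and 8.94 (8.35 to 9.58). LD over Dicer-cKO was 0.455 (0.431 to 0.480) for miR-124. It was likewise below 1 for miR-142-5p (0.346) and miR-150 (0.0516), against 1.19 for miR-142-3p and 1.49 for miR-146a. In the Dicer-cKO sample miR-142-5p (3.96-fold) and miR-150 (5.67-fold) were higher than in wild type MG, as miR-124 was. Under all 10 scalings miR-124 was called higher in both comparisons with wild type MG, at the lowest 2.31- and 2.34-fold. The part of miR-124 in the result was not tested. The other 3 neuronal markers and the lists for photoreceptors, red blood cells and blood vessels could not be named in the table. miR-142-3p had 29.5 counts per 1000 of miR-124 in the wild type sample (20.3 to 41.1), 66.7 in the LD sample (57.1 to 77.6) and 25.4 in the Dicer-cKO sample (19.7 to 32.2). Relative to miR-124 it was thus higher after LD and did not differ between Dicer-cKO and wild type MG beyond counting error. The 5 MG markers miR-204, miR-125b-5p, miR-9, miR-99a and miR-100 summed to 496159, 121029 and 69548 normalized counts, far above the sum of the 4 leukocyte miRNAs in every sample.

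The miRNAs of mean at least 100 whose pattern over the 3 samples was most like that of a member were found by Euclidean distance of the centred log2 values. MIMAT0003169 was the nearest to both miR-142-3p (distance 0.587) and miR-146a (0.494), with 47 normalized counts in the wild type sample, 288 in the LD sample and 206 in the Dicer-cKO sample. MIMAT0000138 was nearest to miR-150 (0.831), with 196, 125 and 1267. The table does not pair these identifiers with names, and whether they mark other cells was not examined. With 3 samples such likeness is a description only.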

How the data were processed

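The authors deposited 1 table of normalized signal, that is, counts of molecules that nSolver 4.0 had corrected with 8 negative and 6 positive controls and normalized to Actb, Gapdh, Rpl19 and B2m. The 7 miRNAs, the lists and the rules were chosen with earlier results of these data known. miRNAs are listed by miRBase identifier. The members' names come from the rule that chose them, and 11 other names from an earlier analysis that matched levels to drawn bars. The housekeeping factors were recovered from the rows that had not been rounded, and dividing by them gave the counts before scaling. Ratios are those of the deposited values, and intervals use the counts after background subtraction. The subtracted background is unknown, and the intervals leave it out. Named were all members, the nearest patterns (3 per member, some identifiers printed) and the list miRNAs that could be matched. Alternatives were other scalings, folds, minimum means, pseudocounts and the control rows. The ratio code was checked on simulated data. Of the 21 further immune miRNAs, 15 were not analysed here. Intervals were computed with scipy 1.17.1 under Python 3.11.15, tables with pandas 2.3.3 and numpy 2.4.6, and plots with matplotlib 3.10.9.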

Additional observations from a re-analysis of the deposited data

Results flagged for a closer look

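miR-150 moved in opposite directions in the comparisons with wild type MG. As deposited its ratio was 0.293 in the LD sample and 5.67 in the Dicer-cKO sample, both past 2-fold and beyond counting error. With 1 sample per condition this difference was not tested, and the 17.5 counts before scaling of the LD sample lie below the highest low control row. The LD call was lost with Gapdh only, at 0.61 (0.345 to 1.02), and with the total without miR-720, at 0.745 (0.422 to 1.24). Without scaling the Dicer-cKO call was lost, at 1.48 (1.15 to 1.91).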

How the results depend on the processing

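No paired analysis was possible because there is only 1 sample per condition. Calls at the lowest value of a sample were left out for the 7 but kept in the shares of all tested miRNAs. Of the 7 miRNAs, 2 were called higher and 1 lower after LD. The number higher was 4 with the same total miRNA count, the median of ratios, Gapdh only or the total without miR-720, where 26.2%, 29.0%, 39.0% and 41.6% of all tested miRNAs were called higher, and the number lower was 0 with Gapdh only (beside 12.7% of all tested) or the total without miR-720 (11.4%). In Dicer-cKO MG 4 were called higher and 0 lower. Without scaling it was 1 higher and 1 lower, beside 5.62% and 83.1% of all tested, and 1 was lower after subtraction of 1 SD of the low controls, beside 68.4%. For LD over Dicer-cKO, 0 were higher and 2 lower. The number higher was 1 with B2m only (beside 51.0% of all tested) or after that subtraction (50.5%), 2 with Gapdh only (62.7%) and 3 without scaling (73.0%), and the number lower was 1 with Gapdh only (8.47%), without scaling (5.62%) or at 3-fold (6.73%). The other 80 recomputed counts stayed within 1.5 times. Directions turned for miR-146a (0.725) and miR-146b (0.302) in Dicer-cKO over wild type without scaling, for miR-146b there after the subtraction (0.129) and for miR-142-3p in LD over Dicer-cKO with the same total (0.499). Uncalled ratios also turned beyond counting error, for miR-142-5p in LD over wild type from 1.37 to 0.777 (0.621 to 0.969) without scaling and to 0.800 (0.640 to 0.999) with Rpl19 only, and for miR-146a in LD over Dicer-cKO from 1.49 to 0.625 (0.469 to 0.844) with the same total. For miR-142-3p LD over Dicer-cKO was also 0.660 with Rpl19 only, 0.741 with the median of ratios and 0.746 with the total without miR-720. For all of these the cause was not tested. A requirement that the higher sample exceed the highest low control row, added after seeing the data, changed no count among the 7. The control rows and the 44290 counts of the Dicer-cKO sample limit what can be said of miR-146b, miR-155 and miR-223.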
